A study of Mus musculus with 2 samples.

Results

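Ly6a, Ly6c1, Ly6c2, Ly6e and Ly6i encode small surface proteins of the Ly6 family, and their transcripts were followed here in single-cell RNA sequencing of lung cells sorted for EpCAM, an adhesion protein of epithelial cells. The 5 genes were taken by Ensembl ID out of 31053 genes in the count tables, and all 5 were found. They were selected on earlier results of the same libraries, among them the expression difference between alveolar epithelial type II (AE2) cells of mice given lipopolysaccharide (LPS) and of controls. For that contrast, values and fold changes are therefore given as a description, with no test.

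The cells came from C57BL/6JRj mice in 4 groups. Old LPS mice were 18 months old and received 2.5 mg LPS per kg body weight, old control mice were 18 months old and received saline, young LPS mice were 3 months old and received the same LPS dose, and young control mice were 3 months old and received saline. All lungs were taken 24 h after treatment, lavaged, and digested with dispase. The groups carried different hashtag antibodies, were pooled in equal cell numbers on 1 lane, and the whole experiment was run a second time on another lane, which gives 2 libraries a group. The labels do not give the number of mice behind a library, so each p-value below measures the spread between these libraries.

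The 8 libraries held 6228266 to 15435789 UMIs (unique molecular identifiers, which count captured RNA molecules), and 11231 of 14048 barcodes were kept as cells. Clusters were named from marker genes. AE2-like cells made up 78.8% of the cells (8849), ciliated-like cells 8.04% (903), alveolar macrophage-like cells 4.59% (515), dendritic-like cells 4.54% (510) and club/secretory-like cells 1.58% (178). In AE2-like cells the 8 AE2 markers, Sftpc among them, summed to 82640 to 117400 CPM (UMIs of a gene scaled to a common library total) in LPS libraries and to 267000 to 304300 CPM in control libraries. The 8 monocyte/macrophage markers summed to 0.548 to 1.69 CPM there, the 8 T cell markers to 0.11 to 1.15 CPM, and the 8 endothelial markers to 22.7 to 45.0 CPM. Other lists moved with LPS in the AE2-like sums. The 8 club/secretory markers, all detected, summed to 12480 to 15610 CPM in LPS libraries and 3134 to 6100 CPM in control libraries. The 8 alveolar macrophage markers summed to 62.8 to 77.0 CPM in LPS libraries (Marco at 0) and 12.7 to 23.2 CPM in control libraries. The 6 platelet markers summed to 132 to 203 CPM in LPS libraries and 15.04 to 23.9 CPM in control libraries, with Gp9, Gp1bb and Treml1 at 0 in all groups. Lower after LPS were the 8 neutrophil markers, at 76.9 to 111 CPM in LPS libraries and 145 to 186 CPM in control libraries. So were the 8 ciliated markers, at 30.8 to 45.3 CPM in LPS libraries and 132 to 142 CPM in control libraries. The part of these lists in the Ly6 differences after LPS was not tested. No barcode was shared within a lane, and 2 were shared between lanes.

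Ly6 proteins have a compact, disulfide-rich fold and are tethered to the outer leaflet of the cell membrane by a glycosylphosphatidylinositol (GPI) anchor. In the mouse many of them lie side by side in 1 gene cluster, and several are induced by interferons. Ly6a encodes Sca-1, a surface marker of mouse haematopoietic stem cells and of activated lymphocytes. Ly6c1 and Ly6c2 encode the Ly6C antigens, by which mouse monocytes are sorted and which endothelial cells also carry. Ly6e encodes an interferon-induced protein that alters the entry of several viruses, and Ly6i encodes a lesser-known member.

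All 5 genes lie on chromosome 15 within 157 kb (GRCm38, positions from the annotation). In the count tables they are Ly6e (ENSMUSG00000022587), Ly6i (ENSMUSG00000022586), Ly6a (ENSMUSG00000075602), Ly6c1 (ENSMUSG00000079018) and Ly6c2 (ENSMUSG00000022584). Ly6e spans chr15:74955051-74959905 on the plus strand. The others are on the minus strand: Ly6i at chr15:74979534-74983430, Ly6a at chr15:74994877-74998031, Ly6c1 at chr15:75044018-75048830 and Ly6c2 at chr15:75108158-75111970. No other protein-coding family gene lies in the span. Since the libraries read the 3′ ends of transcripts, the last 500 bases of each annotated transcript were searched for stretches that also occur in another family gene. For stretches of 60 bases, the shared share was 28.5% for Ly6c2, all of it with Ly6c1, and 24.1% for Ly6c1, most of it with Ly6c2. It was 2.92% for Ly6i, 2.4% for Ly6a and 0% for Ly6e. Reads in such stretches can be assigned to either gene or dropped, so the counts of Ly6c1 and Ly6c2 are less certain than those of the other 3.

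Promoter sequences were at hand for 2 of the 5, the Ly6c1 and Ly6c2 pair, which is also the pair whose transcripts differed in direction after LPS. The 250 bases before each annotated start are shown 5′ to 3′ on the gene's strand (RefSeq, GRCm38.p6, minus strand, chr15:75048838-75049087 for Ly6c1 and chr15:75111972-75112221 for Ly6c2). Capitals mark runs of at least 12 bases that both hold.
Ly6c1: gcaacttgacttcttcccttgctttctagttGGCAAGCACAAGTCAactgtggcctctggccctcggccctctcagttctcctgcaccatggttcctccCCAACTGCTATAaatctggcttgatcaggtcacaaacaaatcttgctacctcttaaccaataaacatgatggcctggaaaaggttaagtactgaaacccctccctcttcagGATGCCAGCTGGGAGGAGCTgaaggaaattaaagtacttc
Ly6c2: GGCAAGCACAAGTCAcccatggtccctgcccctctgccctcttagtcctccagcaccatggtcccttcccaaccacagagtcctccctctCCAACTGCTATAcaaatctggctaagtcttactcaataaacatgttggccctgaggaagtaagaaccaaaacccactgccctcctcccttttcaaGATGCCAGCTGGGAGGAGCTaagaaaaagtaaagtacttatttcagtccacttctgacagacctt
The 3 shared runs cover 47 bases, 18.8% of each window, and the longest is 20 bases. An alignment of both windows was identical at 171 of 290 positions (59.0%). In the windows from 250 bases before to 50 bases after these starts, neither strand held GAAANNGAA, the core of the interferon-stimulated response element, which 8.56% of 32851 RefSeq promoters of that length hold. Neither held TTCNNNGAA, the gamma-activated site (8.3% of promoters), nor GGANTTTCC, a form of the NF-kappaB site (1.25% of promoters). These letters are a description of the windows alone.

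In AE2-like cells, 4 of the 5 transcripts were more abundant in LPS libraries than in control libraries at both ages, and Ly6c2 was less abundant. Ly6i and Ly6a went furthest, Ly6c1 and Ly6e less far. AE2 cells make surfactant and line the alveoli, and their counts were summed per library and scaled by TMM (edgeR's trimmed mean of M-values).

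Ly6i stood at 1774 and 1772 CPM in old LPS libraries, against 50.5 and 36.8 CPM in old control libraries. It stood at 2901 and 2307 CPM in young LPS libraries, against 31.6 and 29.8 CPM in young control libraries. Every LPS library was far above every control library, and both old LPS libraries were below both young LPS libraries. The log2 fold change over control was 5.35 ± 0.16 in old mice and 6.41 ± 0.17 in young mice (SE, 2 libraries a group).

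Ly6a, the Sca-1 transcript, stood at 516 and 395 CPM in old LPS libraries, against 38.5 and 25.1 CPM in old control libraries. In young LPS libraries it stood at 744 and 378 CPM, against 16.3 and 10.3 CPM in young control libraries. The 2 young LPS libraries lay further apart than their mean lay from that of old LPS. Its log2 fold change was 3.85 ± 0.49 in old mice and 5.46 ± 0.56 in young mice.

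Ly6c1 had 543 and 309 CPM in old LPS libraries, against 92.6 and 81.8 CPM in old control libraries. It had 709 and 392 CPM in young LPS libraries, against 69.5 and 64.0 CPM in young control libraries. At both ages the first lane gave the higher LPS value. On the log2 scale the fold change was 2.29 ± 0.43 in old mice and 3.05 ± 0.45 in young mice.

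Ly6e was already present in control cells and went up the least. It had 1710 and 1695 CPM in old LPS libraries, against 627 and 590.4 CPM in old control libraries. It had 2235 and 2001 CPM in young LPS libraries, against 580.5 and 656 CPM in young control libraries. Its log2 fold change was 1.48 ± 0.10 in old mice and 1.78 ± 0.10 in young mice, and the lanes agreed closely.

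Ly6c2 ran the other way. It had 8.74 and 18.8 CPM in old LPS libraries, against 43.5 and 42.6 CPM in old control libraries. It had 9.69 and 14.4 CPM in young LPS libraries, against 29.6 and 19.7 CPM in young control libraries. No LPS library reached the lowest control library. Its log2 fold change was -1.63 ± 0.39 in old mice and -0.97 ± 0.45 in young mice.

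Across all 11371 genes tested in AE2-like cells, 25.1% were called higher and 23.2% lower after LPS in old mice, and 21.9% higher and 18.4% lower in young mice (edgeR quasi-likelihood test, adjusted p under 0.05). Ly6a, Ly6c1, Ly6e and Ly6i were among the genes called higher at both ages. Ly6c2 was among those called lower in old mice and was not called in young mice. Because the genes were picked with this contrast known, nothing is read from those counts.

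**Figure D1:**
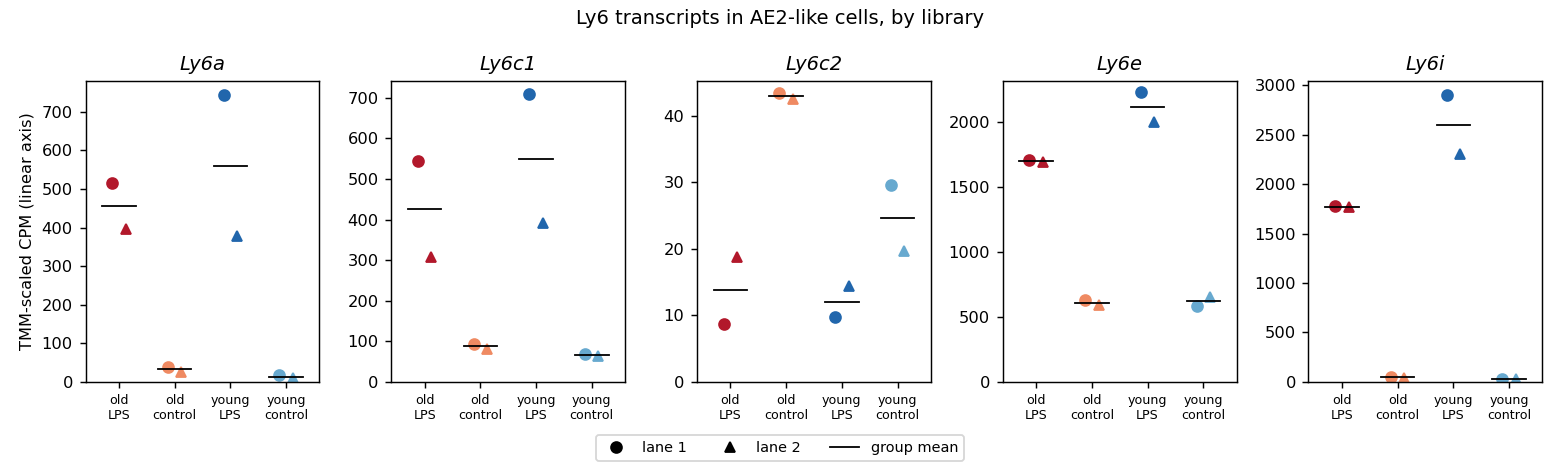
TMM-scaled CPM of each Ly6 transcript in AE2-like cells (linear y axes that start at 0, 1 panel a gene), by group, with circles for lane 1, triangles for lane 2 and a line at the group mean of 2 libraries. Ly6a, Ly6c1, Ly6e and Ly6i sit higher in both LPS groups, Ly6i at 1772 to 2901 CPM against 29.8 to 50.5 CPM in controls, whereas Ly6c2 sits lower, at 8.74 to 18.8 CPM against 19.7 to 43.5 CPM.

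By share of cells, Ly6a, Ly6c1, Ly6e and Ly6i were again found more often in LPS libraries, whereas the Ly6c2 shares of LPS and control libraries overlapped. After each AE2-like cell was thinned to 2000 UMIs, Ly6i was found in 87.7% and 72.2% of cells of the old LPS libraries, against 6.97% and 5.74% of old control cells. In young LPS libraries it was found in 92.9% and 85.5% of cells, against 6.20% and 6.20% of young control cells. Most AE2-like cells of LPS libraries thus carried Ly6i. In ciliated-like cells, where free RNA may add to it, Ly6i was found at that depth in 5.90% of old LPS, 2.43% of old control, 9.72% of young LPS and 3.61% of young control cells. Unthinned, Ly6i was found in 79.0% to 96.1% of LPS cells and 11.8% to 16.6% of control cells, with median depths of 7602 to 9090 and 5722 to 7095 UMIs.

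Ly6a was found in fewer cells, 43.8% and 32.1% in old LPS libraries and 3.15% and 3.24% in old control libraries, at 2000 UMIs. It was found in 47.2% and 33.9% of young LPS cells, against 2.48% and 1.68% of young control cells. The 10% of AE2-like cells with the most Ly6a held 45.2% and 55.1% of its UMIs in old LPS libraries and 49.7% and 57.1% in young LPS libraries. The 10% of cells with the most Ly6i held 22.0% to 28.1% of its UMIs, and for Ly6e the range was 17.4% to 20.2%. Ly6c1 was found in 35.4% to 56.0% of LPS cells and 11.2% to 14.9% of control cells. Ly6e was found in 91.0% to 97.5% of LPS cells and 63.2% to 66.4% of control cells, and Ly6c2 in 1.49% to 4.04% of LPS cells and 2.92% to 8.02% of control cells. In ciliated-like cells at that depth Ly6c2 was found only in young LPS mice, in 0.694% of 144 cells.

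Ly6a and Ly6i were also found together in AE2-like cells, with values given here for the old LPS libraries alone. At 5000 UMIs per cell, Ly6a was found in 57.2% of 1022 cells with Ly6i and in 9.47% of 264 cells without it in the second old LPS library. In the first old LPS library it was found in 63.3% of 1128 cells with Ly6i and in 21.2% of 52 cells without. Ly6c2 went the other way in all 4 LPS libraries. It was found in 2.93% and 4.01% of cells with Ly6i and in 15.4% and 28.4% of cells without it in old LPS libraries. In young LPS libraries it was found in 4.61% and 4.75% of cells with Ly6i and in 18.5% and 24.1% of cells without it (27 and 87 cells). AE2-like cells of LPS libraries in clusters of mostly control cells, described below, had 43.05 to 92.83 CPM of Ly6i. Co-detection was not separated from that split.

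AE2-like cells fell into 10 clusters, of which 4 held mostly control cells (63.7% to 94.7% of their cells) and 5 held almost only LPS cells (at most 0.744% control cells). The 5 were led by Cxcl1 and Il4i1, by Saa3 and Itih4, by the interferon-induced GTPase genes Iigp1 and Igtp, by Csf3 and Cxcl2, and by Cxcl10 and Gbp2. A sixth, led by Itih4 and Cyp2b10, was mixed, with 25.8% control cells. Of the 5 genes, 4 were among those used to cluster, so levels by cluster are a description.

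Ly6a, Ly6c1 and Ly6i were highest in the cluster led by Cxcl10 and Gbp2. There Ly6i stood at 2855 CPM in old LPS cells and 3745 CPM in young LPS cells, Ly6a at 1018 and 1404 CPM, and Ly6c1 at 746 and 1457 CPM, each pooled over 117 old and 297 young cells. In the cluster led by Saa3, Ly6a stood at 251 CPM in old LPS cells and 254 CPM in young LPS cells. Ly6e hardly moved among the 5 clusters, with 1653 to 1994 CPM in old LPS cells and 1818 to 2200 CPM in young LPS cells. Ly6c2 stood at 0 to 10.3 CPM in all 5.

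**Figure D2:**
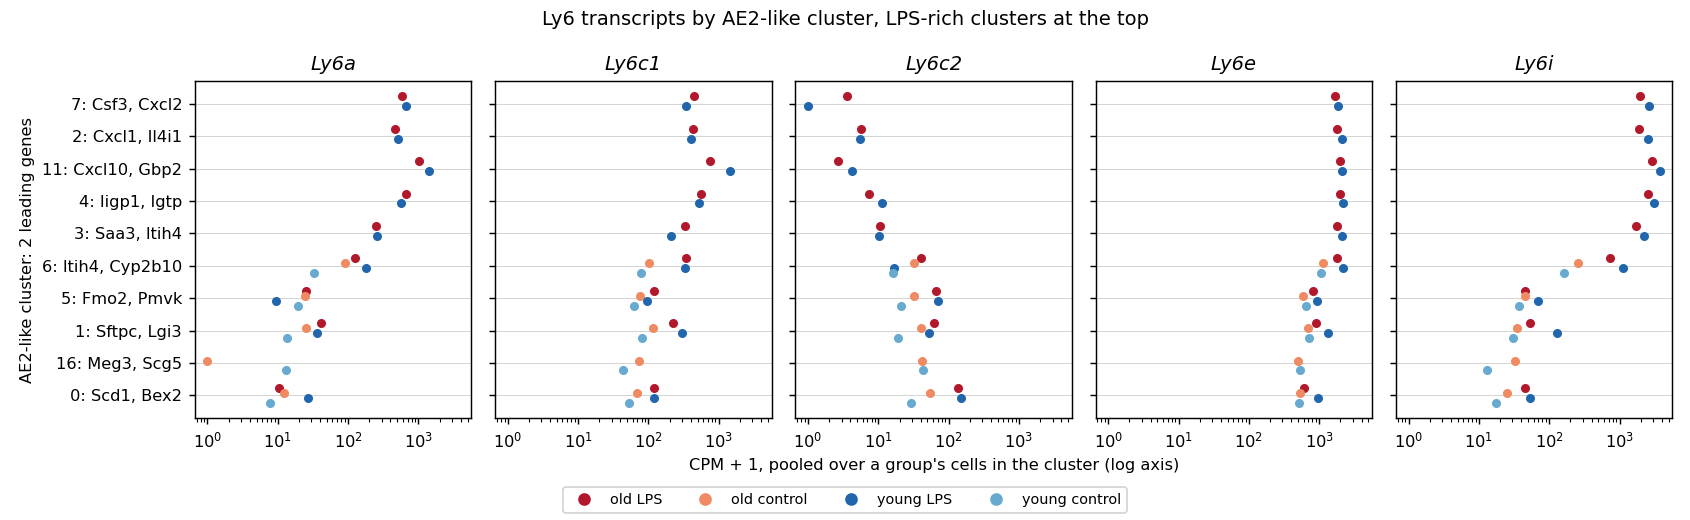
CPM + 1 of each Ly6 transcript (log x axis) in AE2-like clusters named by their 2 leading genes (rows, with the clusters that hold the fewest control cells at the top), pooled over a group's cells, for groups with at least 20 cells in the cluster. Ly6a, Ly6c1 and Ly6i peak in the Cxcl10 and Gbp2 row, Ly6e is near 2000 CPM in all LPS-rich rows, and Ly6c2 is at most 10.3 CPM in the upper 5 rows and higher below.

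Some AE2-like cells of LPS libraries lay in the 4 clusters that hold mostly control cells. They were 3.13% and 23.1% of AE2-like cells in the old LPS libraries and 3.96% and 9.43% in the young LPS libraries, so the second old LPS library stood apart. In these cells Ly6c2 had 85.6 and 79.5 CPM in old LPS libraries and 74.3 and 75.7 CPM in young LPS libraries. In the other AE2-like cells of the same libraries it had 6.92 and 6.55 CPM (old LPS) and 7.76 and 9.98 CPM (young LPS). These few cells held 20.8% and 70.6% of all Ly6c2 UMIs of AE2-like cells in the old LPS libraries and 21.6% and 35.1% in the young ones. The higher Ly6c2 value of the second old LPS library in the sums thus came with its larger share of such cells.

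In the same cells Ly6i had 77.1 and 43.1 CPM in old LPS libraries and 92.8 and 80.6 CPM in young LPS libraries, against 1771 and 2094 CPM and 2959 and 2459 CPM in the other cells. Ly6e had 985 and 752 CPM in old LPS libraries and 1253 and 970.4 CPM in young LPS libraries there. Ly6c2 was above all of its control libraries in these cells.

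For age, the question was whether old and young mice differ before LPS, after LPS, and in the size of the LPS difference. Without LPS, none of the 5 transcripts was called different in AE2-like cells, where 0.651% of all genes were. After LPS, Ly6i was lower in old mice, and its LPS difference was smaller in old mice. Ly6e leaned the same way without passing the test.

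In control AE2-like cells, Ly6e differed by a log2 fold change of -0.02 ± 0.10 (old over young, adjusted p = 0.969), the narrowest estimate of the 5. Ly6i differed by 0.51 ± 0.16 (adjusted p = 0.236), which passed when no count filter was used (adjusted p = 0.00126). Ly6c2 differed by 0.85 ± 0.40 (adjusted p = 0.569) and Ly6c1 by 0.39 ± 0.45 (adjusted p = 0.857). Ly6a differed by 1.31 ± 0.59 (adjusted p = 0.566), and with lane as a block by 1.26 ± 0.17 (adjusted p = 0.00469), which passed. That Ly6a value leaned on single cells. One cell held 95 of 247 Ly6a UMIs in the first old control library (38.5%) and another held 56 of 200 in the second (28.0%). Without the top cell of each library, Ly6a had 24.5 and 18.4 CPM in old control libraries, against 13.9 and 10.1 CPM in young control libraries.

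After LPS, Ly6i was lower in old mice by a log2 fold change of -0.55 ± 0.13 (edgeR quasi-likelihood test, adjusted p = 0.0322), with both old LPS libraries below both young ones. Of all genes, 4.08% were called in that comparison, 2.42% lower. Ly6e differed by -0.31 ± 0.09 (adjusted p = 0.0772; 0.0477 with lane as a block). Ly6a differed by -0.30 ± 0.41 (adjusted p = 0.780), Ly6c1 by -0.37 ± 0.40 (adjusted p = 0.712) and Ly6c2 by 0.19 ± 0.44 (adjusted p = 0.870). The errors of these 3 are large, and differences of that size were not detectable with these libraries.

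The LPS difference itself differed with age for Ly6i, with an interaction (old minus young, log2) of -1.06 ± 0.20 (edgeR, adjusted p = 0.0380), where 0.695% of all genes were called. It joins the age difference in controls, 0.51 and not called, with that after LPS, -0.55. Pooled Ly6i stood at 43.9 CPM (old control) and 30.3 CPM (young control) in AE2-like cells. In those groups it stood at 27.3 and 40.0 CPM in alveolar macrophage-like cells and at 12.1 and 17.0 CPM in ciliated-like cells. The part of free RNA in these control levels was not tested. The interaction was negative for all 5: -0.29 ± 0.13 for Ly6e (adjusted p = 0.480), -0.76 ± 0.60 for Ly6c1 (0.754), -0.66 ± 0.60 for Ly6c2 (0.787) and -1.61 ± 0.72 for Ly6a (0.566). For Ly6c2, whose level was lower after LPS, a negative sign means a larger drop in old mice. For Ly6a the value with lane as a block was -1.497 ± 0.20 (adjusted p = 0.00523), which passed and which also rests on the control libraries with the 2 high cells.

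Both Ly6i calls were near the threshold and depended on single libraries. The difference after LPS kept its call without either old control library or without the second young LPS library. It lost it without the first old LPS library (-0.56, adjusted p = 0.204), the second old LPS library (-0.55, 0.105), the first young LPS library (-0.38, 0.260), the first young control library (-0.56, 0.0758) or the second (-0.56, 0.0778). The interaction kept its call without the second old control or the second young LPS library. It lost it without the first old LPS library (-1.06, adjusted p = 0.199), the second (-1.05, 0.0816), the first old control library (-0.82, 0.160), the first young LPS library (-0.89, 0.0911), the first young control library (-1.08, 0.192) or the second (-1.01, 0.332). Its sign did not change in any of these.

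Within clusters the age order of Ly6i was the same. In each of the 6 AE2-like clusters with at least 20 cells in all 4 LPS libraries, both old LPS libraries were below both young LPS libraries. In 1 of them, led by Fmo2 and made mostly of control cells, the order rests on few UMIs. It had 7 and 51 Ly6i UMIs in old LPS libraries (52.5 and 43.8 CPM) and 9 and 24 in young LPS libraries (75.0 and 67.4 CPM). Control libraries had 23.4 to 57.3 CPM in that cluster. In the cluster led by Iigp1, Ly6i stood at 2286 and 2657 CPM in old LPS libraries, against 3263 and 2952 CPM in young LPS libraries. In the cluster led by Cxcl10 it stood at 2540 and 3036 CPM in old LPS libraries, against 3833 and 3611 CPM in young LPS libraries. In the cluster led by Saa3 the values were 1600 and 1789 CPM (old LPS) and 2520 and 2014 CPM (young LPS). Ly6e showed the order in 5 of the 6 clusters, and Ly6a, Ly6c1 and Ly6c2 in 1 each, with the opposite order in 1 each. Clusters of 1 library share cells' handling and depth, so the 6 are not replicates. The make-up of the class after LPS differed with age. The cluster led by Cxcl1 held 46.7% and 23.6% of AE2-like cells in old LPS libraries, against 8.12% and 6.92% in young ones. For the Csf3 cluster the shares were 25.1% and 14.3% against 0.891% and 1.17%. For the Iigp1 cluster they were 5.56% and 8.75% against 34.95% and 31.3%. For the Cxcl10 cluster they were 3.53% and 5.08% against 18.5% and 9.88%. The part of this make-up in the Ly6i difference was not tested.

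Ciliated-like cells, whose beating cilia clear the airways, are a second epithelial class with enough cells for a test. Here Ly6e rose after LPS at both ages, and Ly6a, Ly6c1 and Ly6i did not pass the test in the main fit. For Ly6a and Ly6i, some alternative fits did pass at each age, so these missing calls depend on the processing. Ly6c2 had 0 to 3 UMIs a group and was below the count filter. Of 7851 genes tested, 5.77% were called higher after LPS in old mice and 5.25% in young mice.

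Ly6e had 908 and 972 CPM in ciliated-like cells of old LPS libraries, against 394 and 407 CPM in old control libraries. It had 1273 and 1073 CPM in young LPS libraries, against 348 and 389 CPM in young control libraries. No LPS library overlapped a control library. The log2 fold change was 1.23 ± 0.13 in old mice (edgeR, adjusted p = 4.33e-08) and 1.68 ± 0.14 in young mice (adjusted p = 9.6e-11). LPS and control cells of the class lay in different clusters: 1, led by AU040972 and Gpx2, held 71.3% to 94.5% of it in LPS libraries and 0% to 3.85% in control libraries. In the other cluster, led by Sec14l3, the few LPS cells had 514 and 648 CPM of Ly6e in old mice and 814 and 862 CPM in young mice, against 398 and 402 CPM (old control) and 341 and 381 CPM (young control).

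Ly6a was present in ciliated-like cells without LPS. It had 240 and 249 CPM in old LPS libraries, against 190 and 114 CPM in old control libraries. It had 425 and 206 CPM in young LPS libraries, against 113 and 68.2 CPM in young control libraries. In control mice that is above the AE2-like level in every library. Over control, the log2 fold change was 0.58 ± 0.39 in old mice (adjusted p = 0.504) and 1.75 ± 0.46 in young mice (adjusted p = 0.0923). With lane as a block the young value was 1.77 ± 0.24 and passed (edgeR, adjusted p = 2.3e-05).

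Ly6i had 46.7 and 257 CPM in ciliated-like cells of old LPS libraries, against 13.3 and 7.34 CPM in old control libraries. It had 146 and 132 CPM in young LPS libraries, against 12.2 and 27.3 CPM in young control libraries. All LPS libraries were above all control libraries, and the log2 fold changes of 3.50 ± 1.45 (old, adjusted p = 0.285) and 2.99 ± 1.50 (young, adjusted p = 0.381) had wide errors. Few cells carried it: 10 of 101 cells held all 174 UMIs in the second old LPS library. Ly6c1 had 62.4 and 78.2 CPM in old LPS libraries, against 80.7 and 69.7 CPM in old control libraries, and 97.6 and 42.2 CPM in young LPS libraries, against 59.1 and 30.7 CPM in young control libraries. Its log2 fold changes were -0.17 ± 0.27 (adjusted p = 0.794) and 0.59 ± 0.35 (adjusted p = 0.362).

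Age made no called difference to the 4 transcripts tested in ciliated-like cells. Of all genes there, 0.369% were called between old and young control mice, 1.16% between old and young LPS mice, and 0.28% for the interaction. Ly6e differed after LPS by -0.32 ± 0.12 (old over young, adjusted p = 0.384), close to its value in AE2-like cells, and the other 3 had errors of 0.29 to 0.93.

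**Figure D3:**
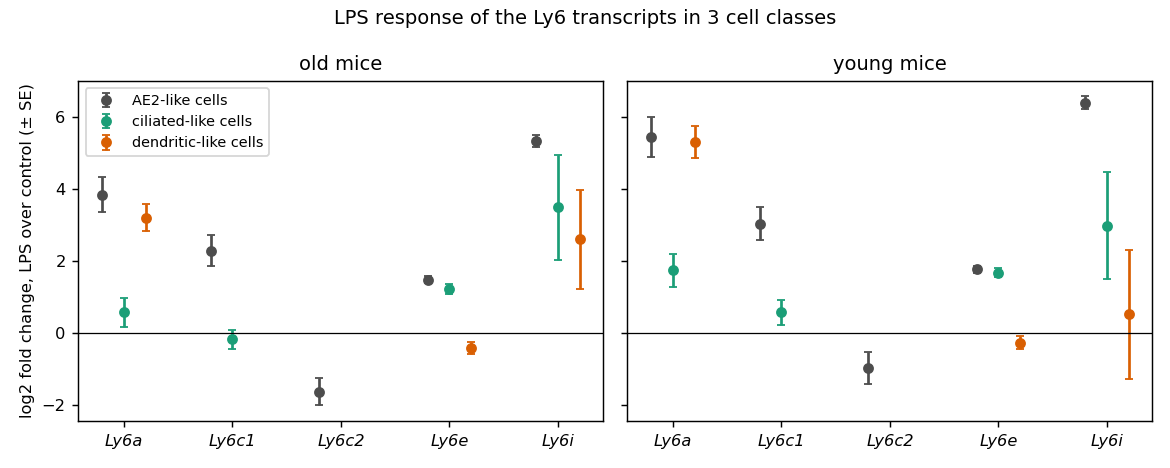
log2 fold change of LPS over control (± SE, 2 libraries a group) for each Ly6 transcript in AE2-like, ciliated-like and dendritic-like cells, in old mice (left) and young mice (right); transcripts below the count filter of a class have no point. Ly6e stands at 1.23 to 1.78 in both epithelial classes and below 0 in dendritic-like cells, and Ly6a stands at 3.21 to 5.46 in AE2-like and dendritic-like cells.

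Free RNA from the abundant AE2 cells can add UMIs to other cells of a droplet run, and it was not removed. The 8 AE2 markers in ciliated-like cells of LPS libraries stood at 4.36% to 7.05% of their AE2-like level. If every Ly6 transcript were carried over at that ratio, Ly6i would have 75.8 and 115 CPM in old LPS libraries and 203 and 141 CPM in young LPS libraries, against unscaled values found of 44.0 and 242 CPM in old LPS libraries and 138 and 126 CPM in young LPS libraries. The Ly6i level of ciliated-like cells was thus below that computed level in 3 of 4 LPS libraries and above it in the second old LPS library. Ly6e would have 73.1 to 156 CPM and had 857 to 1198 CPM. Ly6a would have 22.0 to 52.0 CPM and had 196 to 400 CPM. Both were well above the computed level in all 4 LPS libraries. The computed level takes free RNA from a library's own AE2-like cells, whereas the 4 groups shared a lane and its free RNA. Ciliated-like cells of control libraries on the same lanes had 7.41 to 26.8 CPM of Ly6i, unscaled. How much of the Ly6i in ciliated-like cells was free RNA was not tested.

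Dendritic-like cells are immune cells that present antigen, and they reached the sort in small numbers, 36 to 143 a library. In them Ly6a rose after LPS at both ages, while Ly6e and Ly6i did not pass the test. Of 4575 genes tested, 13.2% were called higher after LPS in old mice and 11.7% in young mice.

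Ly6a had 162 and 115 CPM in dendritic-like cells of old LPS libraries, against 18.4 and 4.58 CPM in old control libraries. It had 244 and 274 CPM in young LPS libraries, against 4.9 and 6.66 CPM in young control libraries. The groups did not overlap. The log2 fold change was 3.21 ± 0.38 in old mice (edgeR, adjusted p = 2.14e-08) and 5.32 ± 0.45 in young mice (adjusted p = 7.32e-12). The interaction was -2.11 ± 0.75 (adjusted p = 0.647), so a difference between ages was not shown. Single cells weighed on the old LPS values, since 1 cell held 23 of 52 Ly6a UMIs (44.2%) in the first library and 19 of 28 (67.9%) in the second. At the AE2 marker ratio, AE2 RNA would give 12.4 and 37.3 CPM of Ly6a in old LPS libraries, against 156 and 106 CPM found, unscaled. In young LPS libraries it would give 13.05 and 8.05 CPM, against 239.7 and 259.5 CPM found. Most of the Ly6a UMIs of the second old LPS library were in 1 cell. Whether its other cells were above the computed level was not tested.

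The dendritic-like class was made of 2 clusters whose shares differed with LPS. The cluster led by Irf8 and Cst3 held 17.7% and 36.6% of the class in old LPS libraries, 88.1% and 86.1% in old control libraries, 29.3% and 37.0% in young LPS libraries, and 86.7% and 87.3% in young control libraries. The other cluster, led by Ccl5, Ccr7 and Ccl22, held the rest. Ly6a was higher after LPS in the Irf8 cluster. In the Irf8 cluster it had 133 and 86.9 CPM in old LPS libraries, against 18.0 and 4.92 CPM in old control libraries, and 404 and 457 CPM in young LPS libraries, against 5.15 and 6.87 CPM in young control libraries. In the Ccr7 cluster it had 162 and 115 CPM (old LPS) and 140 and 134 CPM (young LPS). The control libraries held 1 Ly6a UMI among 17 cells of that cluster in the first old control library (8.96 CPM) and none in the others. Counts of 0 allow up to 111 CPM in the second old control library (5 cells) and up to 109.5 and 56.7 CPM in the young control libraries (6 and 10 cells), so an LPS difference there is not well bounded.

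For Ly6e the sign differed between the whole class and its Irf8 cluster, and neither value passed the test. Over the class, Ly6e had 603 and 717 CPM in old LPS libraries, against 884 and 860.1 CPM in old control libraries, and 665 and 842 CPM in young LPS libraries, against 853 and 946 CPM in young control libraries. The log2 fold change was -0.41 ± 0.17 in old mice (adjusted p = 0.0852) and -0.26 ± 0.17 in young mice (adjusted p = 0.318). In the Irf8 cluster alone it had 1288 and 1179 CPM (old LPS) and 1338 and 1634 CPM (young LPS), against 870.4 and 915 CPM (old control) and 880.1 and 964 CPM (young control). Fitted in that cluster alone, an alternative chosen after seeing the data, the log2 fold change was 0.38 in old mice (adjusted p = 0.664) and 0.52 in young mice (adjusted p = 0.181).

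Ly6i in dendritic-like cells had 12.4 and 202 CPM in old LPS libraries, against 18.4 and 9.15 CPM in old control libraries, and 33.6 and 18.8 CPM in young LPS libraries, against 24.5 and 15.5 CPM in young control libraries. The high value came from 1 cell, which held 35 of 49 UMIs (71.4%). At the AE2 marker ratio, AE2 RNA would give 42.7 and 167 CPM in old LPS libraries and 50.9 and 49.1 CPM in young LPS libraries. The level found was below that computed level in 3 of 4 LPS libraries. Dendritic-like cells of control libraries on the same lanes had 8.69 to 22.55 CPM, unscaled, and the part of free RNA was not tested. Ly6c1 and Ly6c2 were below the count filter.

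**Figure D4:**
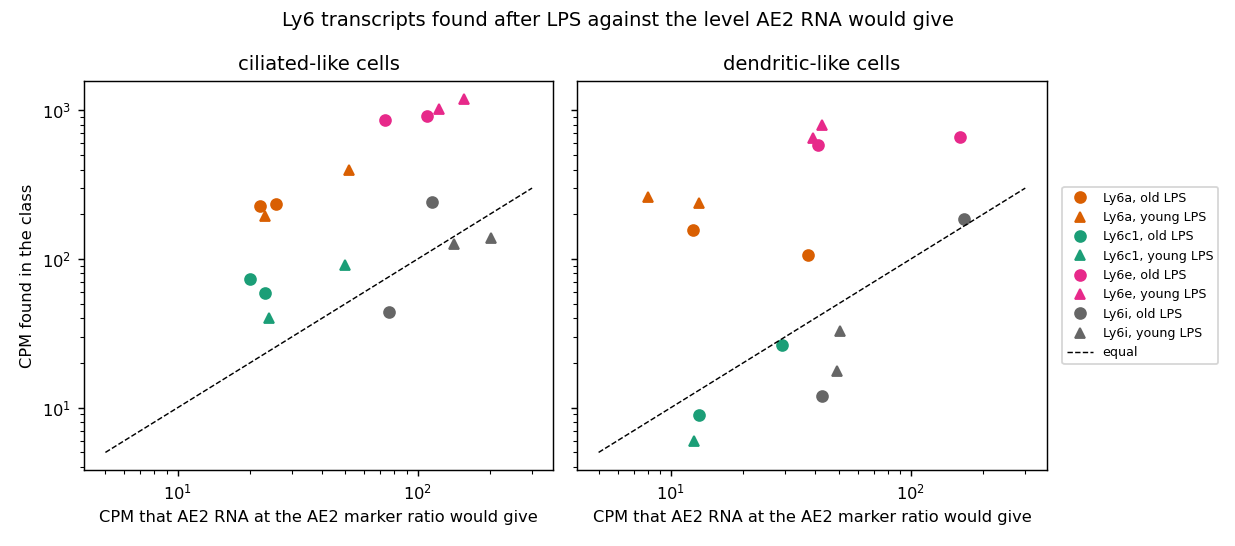
CPM of 4 Ly6 transcripts found in ciliated-like (left) and dendritic-like (right) cells of each LPS library (y, log axis) against the CPM that AE2 RNA would give at the library's AE2 marker ratio (x, log axis), with circles for old LPS, triangles for young LPS and a dashed line where both are equal; a value of 0 (Ly6c1 in dendritic-like cells of the second young LPS library) has no point. Ly6e and Ly6a lie above the line in both classes, and Ly6i lies below it in 3 of 4 ciliated-like libraries and at or below it in most dendritic-like libraries.

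Across cell classes, each transcript had its own order, given here as CPM pooled over both libraries of a group with exact 95% Poisson intervals, which cover counting error only. The classes come from clusters, so these are levels and no test was made. In young LPS mice Ly6i stood at 2565 CPM in AE2-like cells (2541 to 2590), at 1084 in club/secretory-like cells (999 to 1175), at 492 in alveolar macrophage-like cells (387 to 616), at 133 in ciliated-like cells (110 to 159) and at 26.0 in dendritic-like cells (14.9 to 42.2). None of these intervals overlap among the 5 classes. In old LPS mice the order was the same, except that ciliated-like cells (103, interval 90.8 to 117) and dendritic-like cells (88.6, interval 66.4 to 116) overlapped. The alveolar macrophage-like value of young LPS mice rests on 75 UMIs in 17 cells, and the spread between cells is not in the intervals. The level that AE2 RNA would give was computed for ciliated-like and dendritic-like cells alone. The part of free RNA in the order of classes was not tested.

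Among the same 5 classes Ly6a was highest in young LPS mice in club/secretory-like cells, at 976 CPM (895 to 1062), above AE2-like cells at 542 (531 to 553). In old LPS mice the order of those classes was turned, with 347 CPM (322 to 374) in club/secretory-like cells and 445 (436 to 453) in AE2-like cells. In control mice Ly6a was, among the 5 classes, highest in ciliated-like cells in old mice, at 175 CPM (151 to 202), and in club/secretory-like cells (122, interval 85.2 to 168) and ciliated-like cells (96.2, interval 76.8 to 119) in young mice, which overlap. Club/secretory-like cells secrete the airway lining, and there were 99 old LPS, 27 old control, 30 young LPS and 22 young control cells. Outside the 5 classes, an unnamed cluster led by Igkc had 902 CPM of Ly6a (565 to 1365) in 4 old LPS cells, 298 (167 to 492) in 6 old control cells and 1364 (1041 to 1756) in 7 young LPS cells. T cell-like cells, of which 1 to 9 were found a group, had 440.3 CPM (234 to 753) in 9 old LPS cells and 179 (21.7 to 647) in 4 old control cells. The 1 young LPS cell had 16 Ly6a UMIs of 12664 and also 38 Ly6i UMIs, so it gives no level for its group. Whether that barcode held more than 1 cell was not tested.

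Among the 5 classes Ly6c1 was highest in AE2-like cells in LPS mice. It stood there at 411 CPM (403 to 420) in old LPS mice and 534 (523 to 545) in young LPS mice. In club/secretory-like cells it stood at 15.7 (10.7 to 22.1) and 18.1 (8.67 to 33.2) CPM in those groups, and in ciliated-like cells at 63.3 (53.6 to 74.2) and 70.4 (54.1 to 90.1) CPM. An unnamed cluster of 27 cells led by the immunoglobulin genes Igkc and Iglc1 had more in old LPS mice, 1271 CPM (863 to 1804, 4 cells), and had 364 CPM (208 to 591, 7 cells) in young LPS mice. Ly6e was found in each of the 5 classes, from 303 CPM in club/secretory-like cells of old control mice upward.

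Ly6c2 was higher in some rare cells than in the AE2-like class. A cluster of 75 cells led by S100a8 and S100a9, with markers of neutrophils and of monocytes, had 209 CPM (157 to 273, 54 UMIs) in 51 cells of old LPS mice and 176 CPM (84.2 to 323) in 12 cells of young LPS mice. The cluster led by Igkc and Iglc1 had 615 CPM (344 to 1014, 4 cells) in old LPS mice and 727 CPM (498 to 1027, 7 cells) in young LPS mice. The monocyte/macrophage-like cluster, led by Mgl2, Cd209a and S100a4, had 0 Ly6c2 UMIs in all 4 groups, which allows up to 5.12 CPM in its 105 young control cells and up to 115 CPM in its 5 old LPS cells. In AE2-like cells of old control mice Ly6c2 stood at 44.0 CPM (40.6 to 47.6), and in ciliated-like cells of the same mice at 1.85 (0.225 to 6.70).

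**Figure D5:**
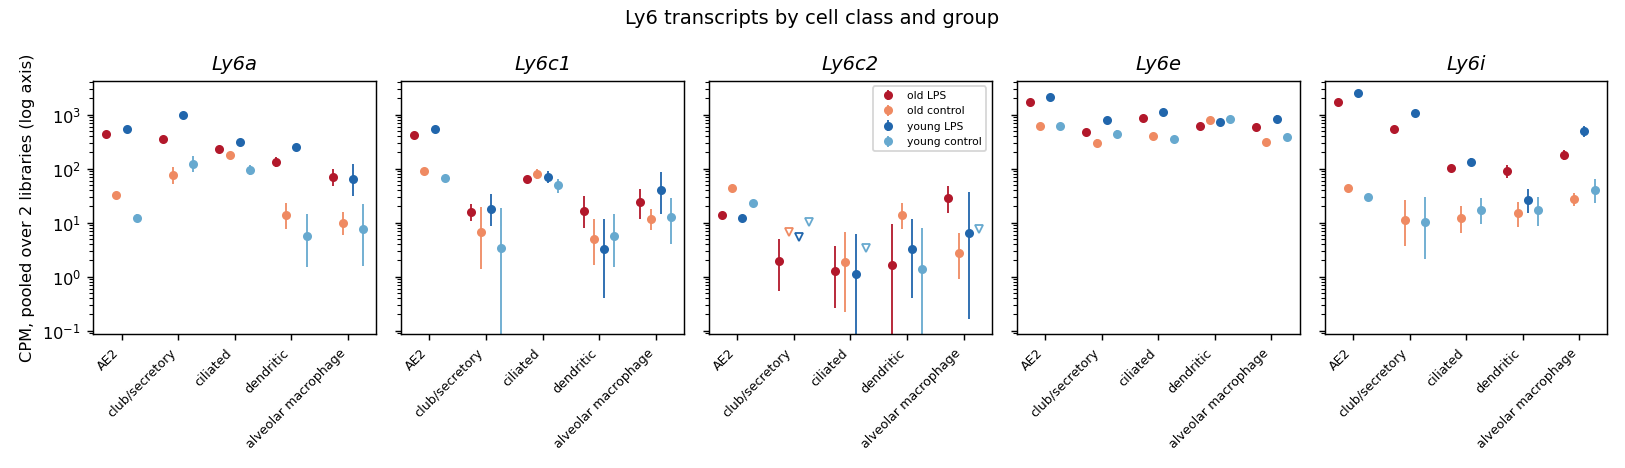
CPM of each Ly6 transcript (log y axis) by cell class and group, pooled over 2 libraries, with exact 95% Poisson intervals; open triangles mark the upper limit of 3 UMIs where none was found. In LPS groups Ly6c1 is at least 403 CPM in AE2-like cells and at most 90.1 CPM (interval ends) in the other classes shown, while Ly6a and Ly6i are also high in club/secretory-like cells.

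Among the rest of the family, 42 further genes had been listed and 36 were found in the tables. This list and the lists below were chosen with earlier results of these data known, so their counts are a description. In AE2-like cells 9 passed the count filter, and 9 of the 36 had no UMI. After LPS 4 rose and 1 fell in old mice, where 25.1% of all genes were called higher and 23.2% lower, and 2 rose and 3 fell in young mice, where the shares were 21.9% and 18.4%. The young count of higher genes is at that background. The list had medians of 0.30 and -0.38 on the log2 scale against -0.01 over all genes at both ages. All 9 were low, under 21 CPM in every library.

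Ly6k, which is best known from the testis, differed most with age. It had 5.74 and 9.70 CPM in AE2-like cells of old LPS libraries, against 4.37 and 4.65 CPM in old control libraries, and 1.05 and 0.879 CPM in young LPS libraries, against 6.07 and 8.70 CPM in young control libraries. It fell after LPS in young mice (-2.98 ± 0.39, adjusted p = 1.75e-05) and rose in old mice (0.78 ± 0.27, adjusted p = 0.0263), and the interaction was 3.76 ± 0.48 (edgeR, adjusted p = 0.00252). Ly6g6d, which overlaps Ly6g6e on the other strand, fell in old mice (-1.41 ± 0.17, adjusted p = 7.76e-06) and in young mice (-1.08 ± 0.19, adjusted p = 0.000255). Lypd6b rose in old mice (1.01 ± 0.24, adjusted p = 0.00244) and in young mice (1.21 ± 0.27, adjusted p = 0.00196).

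Of the others, Ly6d rose in old mice only by the test (1.63 ± 0.46, adjusted p = 0.0254), with 20.03 and 8.91 CPM in old LPS libraries, against 3.28 and 5.78 CPM in old control libraries; its interaction did not pass (adjusted p = 0.627). Lynx1 fell in young mice (-0.86 ± 0.24, adjusted p = 0.00926), and its interaction did not pass (adjusted p = 0.581). 2010109I03Rik was called higher at both ages, with 0 CPM in both old control libraries and at most 1.32 CPM elsewhere. Cd59a, Lypd2 and Ly6g6e were not called at either age. In ciliated-like cells Cd177, a GPI-anchored protein known from neutrophils and named here after its values were seen, rose with LPS. It had 791 and 381 CPM in old LPS libraries, against 30.1 and 40.4 CPM in old control libraries, and 401 and 338 CPM in young LPS libraries, against 17.4 and 17.1 CPM in young control libraries (4.17 ± 0.52, adjusted p = 0.00847, and 4.41 ± 0.65, adjusted p = 0.0174).

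Genes that build and attach the GPI anchor were called at or under the share of all genes, except the lower calls in young mice, which were slightly above it. Of 25 tested in AE2-like cells, 5 rose and 4 fell after LPS in old mice (median log2 fold change -0.13), and 4 rose and 5 fell in young mice (0.01). Over all genes 25.1% were called higher and 23.2% lower in old mice, and 21.9% and 18.4% in young mice. Pigyl, which acts in the first step of anchor synthesis, rose by 0.29 ± 0.09 in old mice (adjusted p = 0.0128) and by 0.46 ± 0.09 in young mice (adjusted p = 0.000776), and Dpm2 by 0.41 ± 0.11 (0.0066) and 0.44 ± 0.12 (0.00796). Pigp and Pgap2 did not pass at either age.

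Interferon genes on the lists were mostly higher after LPS in AE2-like cells. Since the lists were chosen with earlier results known, these counts are a description. Of 12 genes for interferon receptors and their signal transducers, 8 rose and 1 fell at each age, where 25.1% (old) and 21.9% (young) of all genes were called higher. The list's medians were 1.27 (old) and 0.91 (young). Ifnar2, a chain of the type I interferon receptor, rose by 1.76 ± 0.11 in old mice (adjusted p = 6.68e-09) and by 1.63 ± 0.12 in young mice (adjusted p = 1.83e-08). Of 41 interferon response genes, 37 passed the count filter and all 37 rose at both ages, against the same 25.1% and 21.9% of all genes. The list's medians were 3.52 in old mice and 4.69 in young mice. Isg15, a ubiquitin-like modifier, rose by 5.02 ± 0.21 (3.21e-08) and 6.80 ± 0.24 (8.55e-09), and Gbp2, a guanylate-binding protein, by 4.99 ± 0.26 (2.16e-06) and 7.38 ± 0.28 (4.34e-07).

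After LPS, 19 of the 37 response genes were lower in old than in young mice and none was higher, where 2.42% of all genes were called lower and 1.66% higher. The list's median was -0.80. Ly6i, with -0.55, had the sign of that list, which was chosen with earlier results known, and a link between them was not tested. For the interaction, Irf1 (-1.12 ± 0.17, adjusted p = 0.00398) and Irgm1 (-1.48 ± 0.24, adjusted p = 0.0163) of the 37 passed, both named after their values were seen, where 0.695% of all genes did, and the list's median was -1.12.

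The genes closest in pattern to each transcript were sought over 36 sums of a class in a library, by Pearson's r of log2(CPM + 1) among 8662 genes. The sums share libraries and differ widely in depth, and r is a description. Ly6i was closest to Lcn2 (0.970), Saa3 (0.925) and Vnn3 (0.905), Lcn2 and Saa3 being acute-phase genes. Ly6a was closest to Gm20186 (0.856), Rtp4 (0.854) and Irf7 (0.844); Rtp4 and Irf7 are on the interferon response list. Ly6c1 was closest to Rhou (0.882), Cblc (0.882) and Bcam (0.872), Ly6e to Cope (0.787), Ppa1 (0.770) and Ceacam1 (0.768), and Ly6c2 to Lpcat1 (0.647), Slc25a51 (0.642) and Zdhhc3 (0.639), with no near match. Among the 5 themselves, r was highest for Ly6e with Ly6i (0.671) and Ly6a with Ly6i (0.669), and lowest for Ly6a with Ly6c2 (0.0497).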

How the data were processed

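The deposited values are raw UMI counts per gene and cell, made with Cell Ranger 3.1.0 on mm10 per the submitters' processing notes, which also name Seurat and STAR. Per the labels, cells of 4 groups carried hashtag antibodies and shared a 10x 3′ lane. Barcodes with at least 500 genes and at most 20% mitochondrial counts were kept, which removed 2803 of 14048. A doublet caller marked 14 of 11245 cells, which were removed. Whether few doublets were present or the caller missed them was not tested. Leaving out the top 3% of doublet scores was tried as an alternative. Free RNA was not removed. Cells were clustered (scanpy 1.11.5, leidenalg 0.10.2, 2000 variable genes, 30 components, 20 neighbours, resolution 1) and clusters were named from marker lists. Of the 5 genes, 4 were among the variable genes, and clustering without them kept the class of 99.8% of cells.

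Counts were summed per class and library and tested over all genes that passed a count filter with edgeR 4.0.16 (quasi-likelihood, TMM, Benjamini-Hochberg adjusted p under 0.05, R 4.3.3), in 1 fit of the 4 groups per class. All adjusted p-values in the text come from these fits unless DESeq2 1.42.0 is named. The procedure was also run on simulated data in which every gene had the same spread. That run does not cover genes of larger spread, such as Ly6a and Ly6c1. CPM by class or cluster are unscaled, with exact Poisson intervals (95%), and a count of 0 is bounded by 3 UMIs. Intervals cover counting error only.

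Replicate numbers are lanes, that is, repeats of the whole experiment, so the numbers pair the libraries. Lane deviations correlated at -0.0257 to 0.177 between groups over 9681 genes in AE2-like cells and at 2.73e-06 to 0.101 over 3985 genes in ciliated-like cells. Lane was not in the fit and was added as a block in an alternative.

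The 5 genes and all lists were chosen with earlier results of these data known. Named beside the 5 were all other family genes that passed the filter in AE2-like cells, up to 4 genes of a list by highest mean CPM, and the 3 genes closest in pattern. One gene of the interferon lists is not reported here by name.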

Additional observations from a re-analysis of the deposited data

Results flagged for a closer look

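The LPS difference of Ly6i in AE2-like cells differed between ages by a tested interaction of -1.06 ± 0.20 (log2, old minus young, edgeR, adjusted p = 0.0380). Both old LPS libraries were below both young LPS libraries, and both old control libraries were above both young control libraries. The age difference in controls (0.51) enters the interaction and was not called by itself.

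The LPS difference of Ly6k differed between ages by 3.76 ± 0.48 (log2, old minus young, edgeR, adjusted p = 0.00252), at levels of 0.879 to 9.70 CPM. It was higher after LPS in both old libraries and lower in both young ones. The alternatives were not run for Ly6k, which was not among the 5 genes.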

How the results depend on the processing

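For the 5 genes, 51 values were recomputed under 861 alternatives: 784 kept direction and side of the threshold, 19 lost a call, 34 gained one and 24 changed sign. The LPS values of AE2-like cells are among the 51. The genes were picked with that contrast known, so nothing is read from the total. Of 17 alternatives each, 6 lost the Ly6i call for age after LPS and 8 lost its interaction call. With lane as a replicate block, 4 calls were gained (given with the results: Ly6a for age in controls, -1.497 for its interaction, 1.77 in ciliated-like cells of young mice, and Ly6e for age after LPS), and the block changed no other call. The Ly6i interaction also lost its call without the top 3% of doublet scores (-0.89, adjusted p = 0.107) and when clustered without the 5 genes (-1.06, 0.0671), as did its age difference after LPS in the second case (-0.56, 0.0525). Without a count filter Ly6i passed for age in controls (adjusted p = 0.00126). Causes were not tested.

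Counts of genes called moved as follows. In AE2-like cells the counts were 74 for age in controls (290 without a filter, 42 with DESeq2, 37 with equal cells per library, 6 to 279 leaving out a library), 464 for age after LPS (872, 207, 305, 278 without cells holding UMIs of other types, 158 to 1634) and 79 for the interaction (316 without a filter, 52 with equal cells, 40 without such cells, 8 to 747). For LPS they were 4585 in young mice (3028 with DESeq2, 2882 to 5258 leaving out a library) and 5494 in old mice (3662, 3873 to 5928). In ciliated-like cells they were 29 for age in controls (66 without a filter, 7 with DESeq2, 8 to 61), 91 after LPS (138, 26, 42 to 140), 22 for the interaction (54, 7, 12 without top doublet scores, 6 with equal cells, 3 to 51), 667 for LPS in young mice (301 with DESeq2, 361 to 798) and 731 in old mice (261, 364 with equal cells, 304 to 852). In dendritic-like cells they were 935 for LPS in young mice (401 with DESeq2, 61 in the larger cluster alone, 513 to 1115) and 1074 in old mice (485, 702 with equal cells, 10 in the larger cluster, 611 to 1153).

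Signs changed for these log2 values. In the larger dendritic-like cluster alone Ly6e had 0.52 (young) and 0.38 (old). In ciliated-like cells Ly6i for age after LPS had 0.11 with DESeq2, Ly6c1 had -0.042 for LPS in young mice and 0.38 for age after LPS without cells holding UMIs of other types, and 0.64 for the second with equal cells, and Ly6e had -0.040 for age in controls with equal cells. Leaving out 1 library gave, in AE2-like cells, -0.13 to 0.056 for Ly6e (age, control) and, for age after LPS, -0.70 to 0.27 for Ly6a, -0.83 to 0.12 for Ly6c1 and -0.48 to 0.62 for Ly6c2. In ciliated-like cells it gave for Ly6c1 -0.21 to 1.25 (LPS, young), -0.30 to 0.015 (LPS, old), -0.50 to 0.70 (age, LPS) and -1.42 to 0.042 (interaction), for Ly6a -0.79 to 0.25 (age, LPS), and for Ly6i -1.58 to 0.87 (age, LPS) and -1.02 to 1.43 (interaction). In dendritic-like cells Ly6i for LPS in old mice had -0.29 to 3.63. With a floor of 50 CPM or Spearman's rho, Lcn2 remained the gene closest to Ly6i.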
